A study of Bos taurus with 8 samples.

Results

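Antiviral effector genes that interferon switches on were followed in bovine blastocysts after high glucose during the first cleavages. The set holds 6 genes, ISG12(A), IFITM2, IFIT5, MX1, IFIH1 and RSAD2, which the array annotation assigns to 8 of 43794 probes. The annotation names 15229 genes in all. The 6 genes were selected by symbol with log2 glucose over control ratios of these same arrays already known, so they count as chosen by those ratios, which are described here and not tested. Embryos matured, fertilized and grown in vitro from slaughterhouse ovaries of cattle (labelled dairy_any) were held in 5 mM glucose (glucose group) or 0.2 mM glucose (control group) from day 0 to day 3, and both then went on in the same standard culture medium. They were taken as blastocysts at 180 h after fertilization, in 4 pools of 10 embryos per group. Each glucose pool was hybridised against a control pool on a pair of 2-colour arrays with the dyes exchanged, 8 arrays in all, so a replicate is a pair of pools numbered 1 to 4. The labels do not say whether pools came from separate collections of ovaries.

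Type I interferons bind a shared receptor and, through JAK kinases and STAT factors, raise many genes that block viral entry, translation, budding or replication. In ruminants the trophectoderm, the outer cell layer of the blastocyst, secretes interferon tau, which acts on the uterus as the signal of pregnancy. The 6 genes cover several steps of this defence. IFIH1 encodes MDA5, a cytosolic sensor of long double-stranded RNA. IFITM2 is a membrane protein that hinders viral fusion, IFIT5 binds the ends of foreign RNA, MX1 is a GTPase that traps viral nucleocapsids, and RSAD2 encodes viperin, which makes a chain-terminating nucleotide. ISG12(A) is an older name of IFI27, by a match to RefSeq synonyms, a small membrane protein strongly induced by type I interferon.

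Levels are log2 signals after normalization within and between arrays, the mean of both dyes for each pool, and ratios are log2(glucose/control), positive where glucose pools were brighter. A probe counted as above background where its signal passed a limit set by the negative control spots of that array and channel, their mean plus 2 SD. Of the 8 member probes 7 passed the filter, which asks for this in at least 1 channel on at least 4 arrays, and all 6 genes kept a probe. Between 66.2% and 82.2% of probes per array passed in at least 1 channel, and 32935 probes for 12589 named genes were tested. Over tested probes the SD of the ratios was 0.195, 0.209, 0.237 and 0.431 in replicates 1 to 4. The number of pairs of pools, 4, limits the precision. The blastocyst label was checked on 12 trophectoderm and 7 inner cell mass genes that could be tested. KRT8, KRT18, IFNT, POU5F1 and NANOG were above background in all 8 glucose and all 8 control channels. So were others, among them TFAP2C, GATA2, KLF4 and DPPA3. Some markers were dimmer, with CDX2 in 4 glucose and 6 control channels, SOX2 in 6 and 7, LIN28 in 4 and 7, and SALL4 in 5 and 2. Without the brightest negative control spot of each array and channel, the glucose counts were 6, 7, 6 and 6, and control counts were unchanged. In such pools, fewer cells of a type and less RNA per cell cannot be told apart.

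ISG12(A), IFITM2 and IFIT5 were brighter in glucose pools 1 and 3 than in their control pools, by log2 ratios of 1.13 to 2.62, and level with or below them in replicates 2 and 4. The brighter ISG12(A) probe had levels of 11.72, 7.68, 11.91 and 8.58 in glucose pools 1 to 4, against 9.10, 8.14, 9.69 and 9.63 in control pools 1 to 4. Glucose pools 1 and 3 were above every control pool, and glucose pool 2 was below every control pool, so the groups overlapped. Its ratios were 2.62, -0.47, 2.22 and -1.05 in replicates 1 to 4, with a mean of 0.83 ± 1.86 (SD, n = 4), or 1.78-fold.

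The dye-swapped arrays repeated these ISG12(A) values. Replicate 1 gave 2.62 on the array of set 047 and 2.61 on that of set 056, and replicate 4 gave -0.77 and -1.32. After removal of the dye effect, the arrays of a pair differed by at most 0.45, against a range of 3.67 over the 4 replicates. Glucose pools 1 and 3 could not be put in order, since their arrays read 11.77 and 11.66 for pool 1 and 12.18 and 11.65 for pool 3. Among the 12589 named genes, 1 had a higher ratio than ISG12(A) in replicate 1 and 20 in replicate 3, whereas 163 had a lower ratio in replicate 2 and 195 in replicate 4.

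The other ISG12(A) probe did not follow the brighter probe. It gave ratios of 0.25, -0.23, -0.04 and -0.09, with a mean of -0.03 ± 0.20 (SD, n = 4), and it was above background in 6 glucose and 7 control channels. In replicate 2 its spot read 10.60 for glucose and 11.28 for control on the array of set 056, against 7.06 and 6.82 on the array of set 047. The ISG12(A) probes thus disagreed, and the mean ratio over both was 0.40.

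IFITM2 had levels of 12.97, 8.81, 12.04 and 9.22 in glucose pools 1 to 4, against 10.62, 9.26, 10.91 and 9.66 in control pools 1 to 4. As for ISG12(A), the glucose pools held both the highest and the lowest levels of the 8. Its ratios were 2.35, -0.45, 1.13 and -0.45, with a mean of 0.65 ± 1.36 (SD, n = 4). In replicate 1, 4 named genes had a higher ratio, and in replicate 3, 97 did. IFITM genes are close paralogs, and whether the probe also reads another family member was not tested, since probe sequences were not used here. IFITM3, another family member, had 0.74, 0.27, 1.20 and -1.25 in replicates 1 to 4.

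IFIT5 showed the same split between replicates, with the widest gap in replicate 3. Its brighter probe had levels of 10.96, 8.29, 11.96 and 9.33 in glucose pools 1 to 4, against 9.19, 8.50, 9.57 and 9.25 in control pools 1 to 4. Ratios were 1.77, -0.21, 2.40 and 0.08, and the mean was 1.01 ± 1.27 (SD, n = 4), or 2.01-fold. Arrays of a pair differed by at most 0.20 after removal of the dye effect, against a range of 2.61 over replicates. The other IFIT5 probe was not well above background in any of the 16 channels and was not tested.

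**Figure D1:**
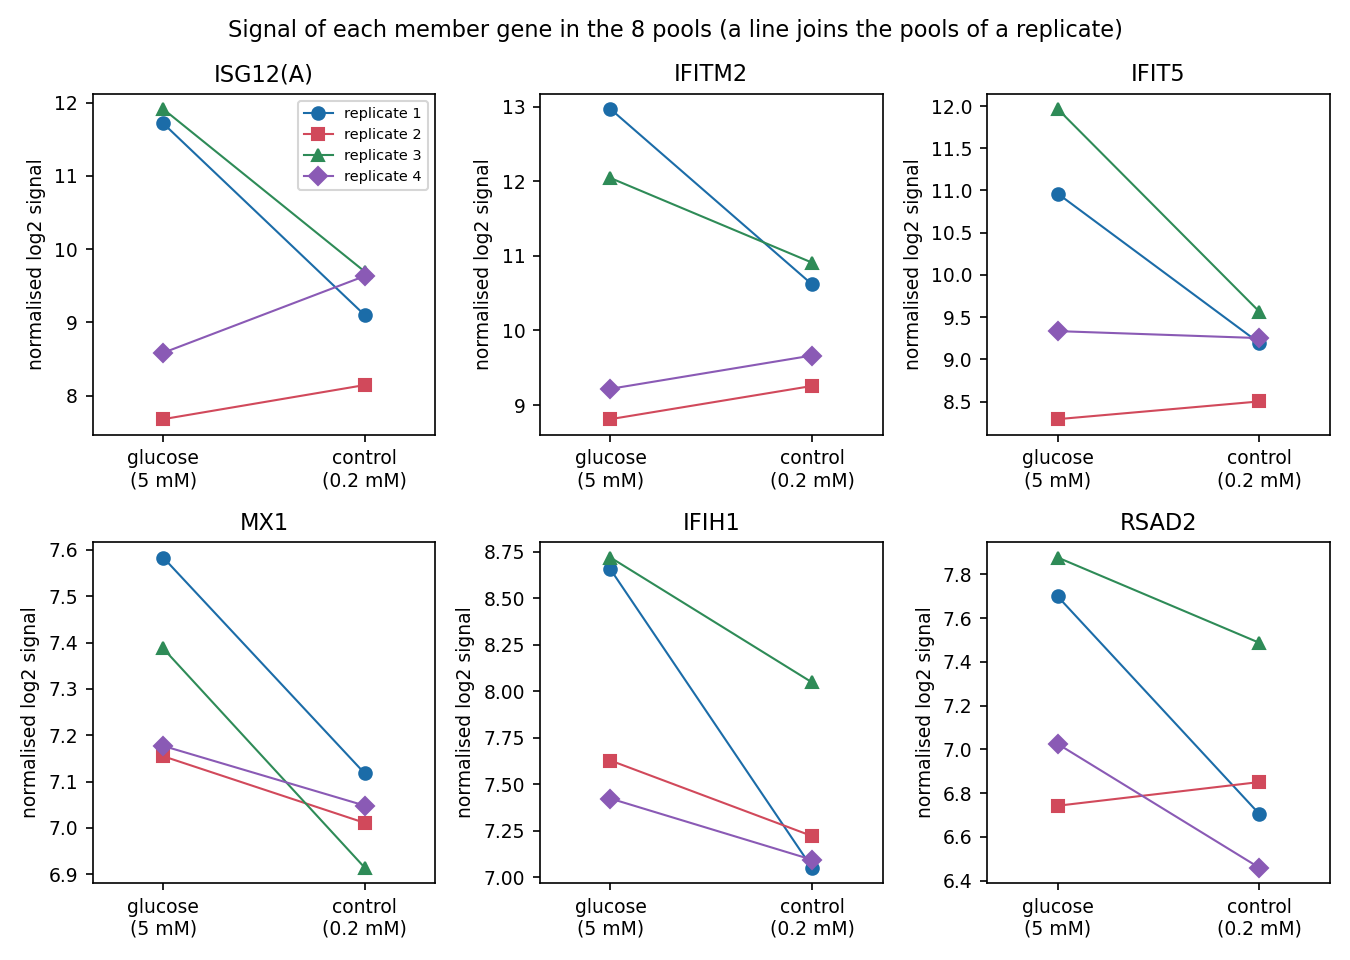
Normalised log2 signal (vertical axis, its scale differing between panels) of the tested probe of highest signal of each member gene in the 4 glucose pools (left of each panel) and the 4 control pools (right), with a line joining the pools of a replicate. For ISG12(A), IFITM2 and IFIT5 the glucose pools of replicates 1 and 3 lie above every control pool, while those of replicates 2 and 4 do not.

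MX1 and IFIH1 were the member genes with a ratio above 0 in all 4 replicates, as 652 of 12589 named genes had (5.18%). No member was below 0 in all 4, as 4.43% of named genes were. MX1 had levels of 7.58, 7.15, 7.39 and 7.18 in glucose pools 1 to 4, against 7.12, 7.01, 6.91 and 7.05 in control pools 1 to 4. The lowest glucose pool, at 7.15, lay just above the highest control pool, at 7.12, so the pool means did not overlap. The same held for 0.397% of named genes, from which nothing is read, since this contrast chose the genes. On single arrays the groups did overlap, with glucose pool 2 at 7.09 and glucose pool 4 at 7.04 on an array each, against 7.11 and 7.13 for control pool 1. Ratios were 0.47, 0.14, 0.47 and 0.13, with a mean of 0.30 ± 0.19 (SD, n = 4), or 1.23-fold. On the array of set 047, replicate 4 read -0.00, and arrays of a pair differed by at most 0.24 after removal of the dye effect, against a range of 0.34 over replicates. MX1 was dim, above background in 7 glucose and 7 control channels, and the added offset of 50 shrinks the ratio of a dim probe.

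For the RNA sensor IFIH1 the levels were 8.66, 7.63, 8.72 and 7.42 in glucose pools 1 to 4, against 7.05, 7.22, 8.05 and 7.09 in control pools 1 to 4. Glucose pools 1 and 3 were the brightest of the 8, but control pool 3 lay above glucose pools 2 and 4, so the groups overlapped. Ratios were 1.60, 0.41, 0.67 and 0.33, with a mean of 0.75 ± 0.59 (SD, n = 4), or 1.68-fold. The arrays of replicate 1 read 2.19 and 1.02, a gap of 0.77 after removal of the dye effect. The probe was above background in 7 glucose and 6 control channels.

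RSAD2 was near the floor of detection. Its levels were 7.70, 6.74, 7.88 and 7.02 in glucose pools 1 to 4, against 6.71, 6.85, 7.49 and 6.46 in control pools 1 to 4. Ratios were 0.99, -0.11, 0.39 and 0.57, and the mean was 0.46 ± 0.46 (SD, n = 4). It was above background in 4 glucose channels and 2 control channels, and both of those control channels held pool 3.

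**Figure D2:**
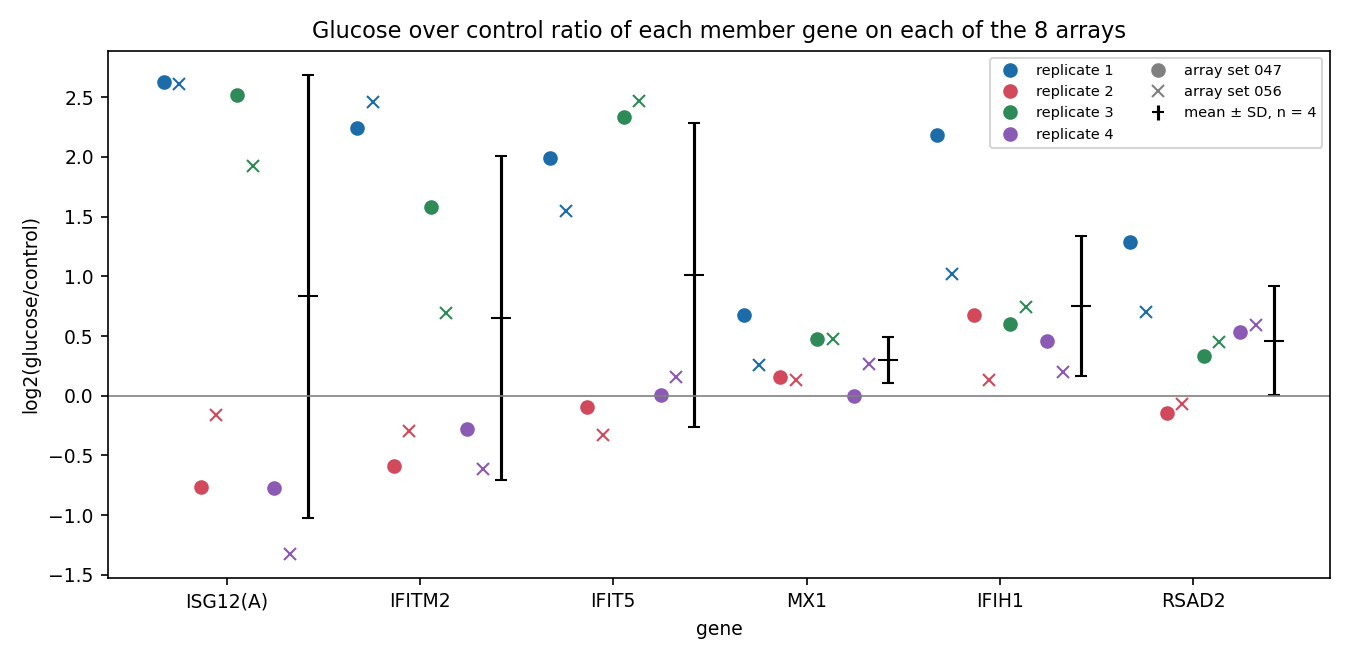
Log2(glucose/control) (vertical axis) of the tested probe of highest signal of each member gene on each of the 8 arrays, with circles for array set 047, crosses for array set 056, 1 colour per replicate, and the mean ± SD over the 4 replicates in black. For ISG12(A), IFITM2 and IFIT5 the replicates spread more widely than the arrays of any replicate, while for IFIH1 the arrays of replicate 1 lie at 2.19 and 1.02.

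Over the 6 genes the median ratio was 1.69, -0.16, 0.90 and 0.11 in replicates 1 to 4, and the median of the 6 mean ratios, all above 0 as for 52.2% of named genes, was 0.70. Over all named genes tested the corresponding medians were 0.00, -0.00, 0.00 and -0.00, and 0.01 for the means. At least 1.5-fold brighter in glucose were 5 of the 6 members in replicate 1, 0 in replicate 2, 4 in replicate 3 and 0 in replicate 4. The shares of all named genes past that fold were 2.03%, 1.39%, 2.08% and 12.7%. Of the members 1, ISG12(A) in replicate 4, was at least 1.5-fold dimmer in glucose, and 0.54%, 0.421%, 1.2% and 7.12% of named genes were in replicates 1 to 4. These counts rest on the contrast used to choose the genes.

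Without the pools of replicates 1 and 3, a choice made after their high ratios were seen, the mean ratio turned below 0 for 3 genes. It was -0.76 for ISG12(A), -0.45 for IFITM2 and -0.06 for IFIT5. These means restate the ratios of replicates 2 and 4 given above and test nothing. The other members stayed above 0, at 0.14 for MX1, 0.37 for IFIH1 and 0.23 for RSAD2. Leaving out replicate 1 alone moved ISG12(A) to 0.24, IFITM2 to 0.08, IFIH1 to 0.47 and RSAD2 to 0.28. Without replicate 2 the mean was 1.26 for ISG12(A), 1.01 for IFITM2 and 1.42 for IFIT5, and without replicate 3 that of IFIT5 was 0.55. Without replicate 3 ISG12(A) had 0.37 and IFITM2 had 0.49, and without replicate 4 they had 1.46 and 1.01.

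Averaged over both channels of a pair of pools, the levels of the member genes also spread over the 4 pairs, least for MX1. These levels use the channels that form the ratios, so they are described and not tested for the members. Over all probes, 38.2% differed between pairs at an adjusted p under 0.05 (47.2% of named genes) by limma's moderated F test with the array set as a covariate. The pools of a pair are measured by 2 arrays, so that test asks only whether pairs differ beyond the technical spread of arrays. ISG12(A) had mean levels of 10.41, 7.91, 10.80 and 9.11 in pairs 1 to 4, a range of 2.89, and the arrays of a pair differed by at most 0.06 after the array set effect was removed. IFITM2 had 11.79, 9.03, 11.48 and 9.44, with a largest gap of 0.17 of the same kind. IFIT5 had 10.08, 8.40, 10.77 and 9.29, with a largest gap of 0.10. For all 3 genes pair 2 was lowest and pairs 1 and 3 were highest.

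IFIH1 had 7.85, 7.43, 8.38 and 7.26 in pairs 1 to 4, highest in pair 3, with a largest gap of 0.24 between the arrays of a pair. MX1 had 7.35, 7.08, 7.15 and 7.11, and its range of 0.27 was close to its largest gap of 0.26. RSAD2 had 7.20, 6.80, 7.68 and 6.74, with a largest gap of 0.27. It met the filter on exactly 4 arrays, on each of them through the glucose channel, and most of its 16 channels were not above background.

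Control pools also differed from each other in several of these genes, while those of MX1 lay close together, between 6.91 and 7.12. Over all probes 27.2% differed between control pools and 23.5% between glucose pools by the same test on a single channel, added after the data were seen. Control pool 2 was the lowest control pool for ISG12(A), IFITM2 and IFIT5, on both of its arrays. Control pool 3 read 8.13 and 7.96 for IFIH1, and no other control pool read above 7.50 on either array. For ISG12(A), control pools 3 and 4 could not be put in order, since they read 9.65 and 9.73 for pool 3 and 9.55 and 9.71 for pool 4.

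Genes whose level followed each member most closely over the 8 pools were looked up among 6362 other named genes that varied between pools. The measure was Pearson's r over 8 pools, given as a description, since the genes were chosen for a high r and the pools of a pair share an array. For every member the pools farthest from its median were glucose pools 1 and 3, so r over the remaining 6 pools is given after it. Closest to ISG12(A) were STAR, which moves cholesterol into mitochondria (r = 0.99, then 0.96), ASB9 (0.98, then 0.93) and the receptor kinase AXL (0.98, then 0.95). IFITM2 was followed by FMOD, a collagen-binding matrix proteoglycan (0.98, then 0.94), STRA6, a receptor for retinol-binding protein (0.97, then 0.92), and the interferon-induced gene IFI44 (0.97, then 0.94).

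SERPINB10, a serine protease inhibitor, was the gene closest to IFIT5, with r of 1.00 over 8 pools and 0.99 over 6. Next came NT5E, the ecto-nucleotidase CD73 (0.99, then 0.97), and NDP, which encodes the Wnt-receptor ligand norrin (0.99, then 0.96). IFIH1 was followed by the protease gene CTSK (0.96, then 0.87), NPAS2 (0.96, then 0.79) and UPK1B (0.95, then 0.94). RSAD2 was followed by RGS2, a regulator of G protein signalling (0.99, then 0.98), DKK3 (0.97, then 0.98) and NPAS2 (0.96, then 0.95). For MX1 the r of KCNIP4, MMD and PLEKHG1 was 0.90, 0.90 and 0.89 over 8 pools but 0.20, 0.54 and 0.37 over 6, so that likeness rested on glucose pools 1 and 3. Of these 17 genes only IFI44 stands in the antiviral list described next.

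Other antiviral effectors gave no call, and a few of them had the profile of ISG12(A) and IFIT5 across replicates. Of 40 tested genes, 30 had a mean ratio above 0 and 10 below, with a median of 0.11 against 0.01 for all named genes. Without replicate 1 the list median was 0.05, and without replicates 1 and 3, a choice made after the data were seen, it was 0.00. By limma with Benjamini-Hochberg adjustment over all probes, 0 rose and 0 fell. At an unadjusted p under 0.05 there was 1, ZNFX1, an antiviral helicase, at 0.32 ± 0.11 (SD, n = 4). Over all probes 0 passed the adjusted threshold (0%) and 780 the unadjusted one (2.37%), and the fit with 8 separate arrays also called 0. OAS1, which makes the activator of RNase L, had levels averaging 8.57 in glucose pools and 7.70 in control pools. Its ratios were 1.59, -0.16, 1.71 and 0.32, with a mean of 0.87 ± 0.93.

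UBA7, the activating enzyme for ISG15 conjugation, had 0.73, -0.08, 0.80 and 0.10, and HERC6 had 0.58, 0.30, 0.37 and -0.08. Chosen after their values were seen, IFI44 (0.85, -0.11, 0.71 and 0.05), PARP9 (0.76, -0.13, 0.67 and -0.06) and IFI16 (0.69, -0.08, 1.36 and -0.18) were at least 1.5-fold brighter in glucose pools 1 and 3, which HERC6 was not. IFITM3, with mean levels of 12.83 in glucose and 12.59 in control pools and the ratios given above, was also at least 1.5-fold brighter in replicates 1 and 3. Some other effectors, also chosen after their values were seen, departed from that profile. HERC5, with mean levels of 11.65 in glucose and 11.51 in control pools, had -0.55, 0.83, 0.70 and -0.42. PARP12, at 11.82 and 11.79, had 0.15, 0.06, -0.05 and -0.05. TRIM25, at 8.58 and 8.23, had 0.93, 0.74, -0.09 and -0.16. Some dim effectors had ratios near 0, where the offset of 50 also shrinks the ratio. MX2, the paralog of MX1, had -0.01, 0.09, -0.02 and 0.05 and was above background in 6 glucose and 6 control channels, and IFIT2 and IFIT3, of the IFIT5 family, had means of -0.06 each. ISG15, the ubiquitin-like modifier, had 0.20 ± 0.29, with 0.62 in replicate 1. Its probe was above background in only 4 glucose and 3 control channels, or 6 and 3 without the brightest negative control spots. The list had 9, 4, 7 and 1 genes at least 1.5-fold brighter in replicates 1 to 4, of 40, against the shares of all named genes given above.

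**Figure D3:**
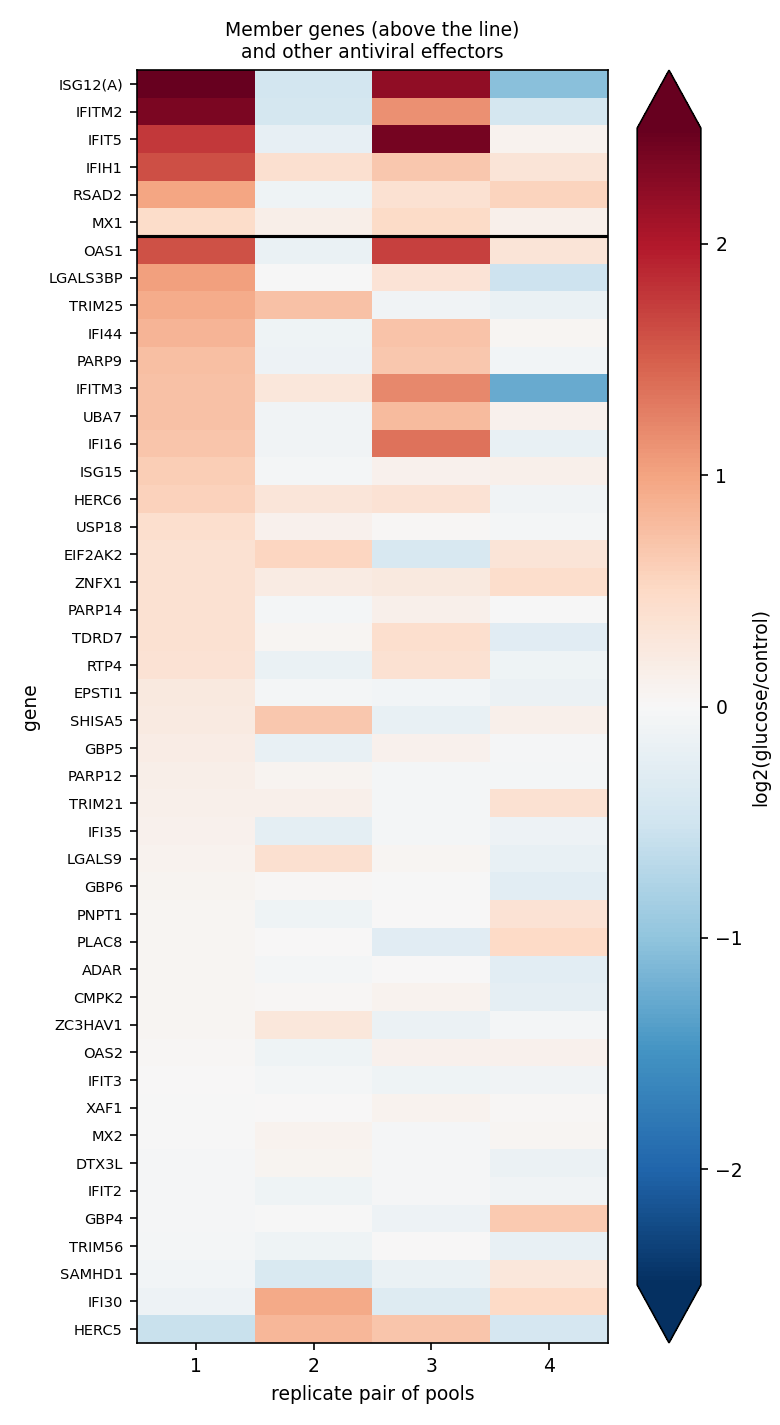
Log2(glucose/control) by colour (red where glucose pools were brighter, colours saturating beyond 2.5) of the 6 member genes above the line and 40 other antiviral effectors below it, in rows ordered by replicate 1, for the 4 replicates in columns. The red cells of replicates 1 and 3 fall mainly in the member genes and in a few effectors such as OAS1, IFI44, PARP9 and IFI16, while most of the 40 stay pale.

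Of 25 listed ligand genes 7 were on the array and 3 could be tested. IFNT, interferon tau, had ratios of 0.81, 0.88, -1.74 and 0.56, so it was below 0 in replicate 3, where ISG12(A) and IFIT5 were above 2. IFNW1, interferon omega, had 0.51, 1.55, -1.11 and 0.60, and IFNAC had a mean of -0.01 ± 0.16. None of the 3 ligand genes tested passed the adjusted threshold (limma), and 0 passed at an unadjusted p under 0.05.

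Receptors and signalling genes had a median of -0.02 over 20 tested genes, with 7 above 0 and 13 below. The list median was 0.13, 0.09, 0.02 and -0.28 in replicates 1 to 4, and in replicate 4 alone 6 of the 20 were at least 1.5-fold dimmer in glucose, against 7.12% of named genes. By limma 0 passed the adjusted threshold in either direction. IFNGR2, a subunit of the interferon gamma receptor, was the 1 gene at an unadjusted p under 0.05 and had 0.67 ± 0.37. IFNAR1 and IFNAR2, the subunits of the type I receptor, had -0.10 ± 0.48 and -0.02 ± 0.29. IFNAR1 had 0.29, 0.17, -0.07 and -0.79 in replicates 1 to 4, and STAT2 had 0.23, 0.17, 0.29 and -1.07, so for both genes the mean lay below 0 with replicate 4 the lowest value. STAT2 and IRF9, which act together downstream of that receptor, had -0.10 ± 0.65 and 0.07 ± 0.10. IFNGR1, JAK2 and PTPN11 had means of 0.12, 0.07 and -0.09. The IRF9 probe was dim, above background in 4 glucose and 2 control channels.

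Among sensors and adaptors other than IFIH1, 13 genes were tested, a list that also holds ISG15 from the effectors above. Their median was 0.07, and 0 passed by limma at the adjusted or the unadjusted threshold. TLR3, the endosomal sensor of double-stranded RNA, had 0.07 ± 0.15, ZBP1 had 0.10 ± 0.04 with only 3 glucose and 1 control channels above background, and the Toll-like receptor kinases IRAK4 and IRAK1 had 0.22 ± 0.29 and -0.07 ± 0.06. Genes of MHC class I presentation, also induced by interferons, had a median of 0.04 over 15, and 0 passed the adjusted threshold (limma). At an unadjusted p under 0.05 there were 2 upward, the peptide transporter TAP2 at 0.28 ± 0.08 and the peptidase ERAP1 at 0.26 ± 0.08, and 1 downward, the class I gene BOLA at -0.61 ± 0.43. BOLA-NC1 had 0.34 ± 0.48 and B2M, the class I light chain, had 0.04 ± 0.58.

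Most, not all, markers of mesenchymal cells were high in the same glucose pools as ISG12(A), IFITM2 and IFIT5. Of 15 markers on the array 14 were tested, and their median ratio was 0.68, -0.06, 1.14 and -0.11 in replicates 1 to 4. At least 1.5-fold brighter were 8, 0, 10 and 1 of the 14, and at least 1.5-fold dimmer were 1, 0, 0 and 1. Of all named genes 2.03%, 1.39%, 2.08% and 12.7% were brighter by that fold, and 0.54%, 0.421%, 1.2% and 7.12% dimmer. In replicate 4 the list had 7.14% each way, so nothing is read from its counts there. VIM had 2.26, 0.30, 2.85 and -0.12, and the matrix gene LUM had 1.79, -0.24, 4.53 and 1.53, whereas COL1A1 had -0.04, -0.10, 0.17 and -0.32. In replicate 1 FN1 had -0.65 and PDGFRA -0.46, and TAGLN was below 0 in all 4. Their summed signal ranged from 42723 to 83528 in glucose pools and from 41797 to 54766 in control pools. FN1, the brightest of them in every pool, weighs most in this sum. Its ratios were -0.65, -0.04, 0.29 and 0.20, so the sum is not a measure of the other markers. DCN, COL6A3 and TAGLN were above background in at most 4 of the 8 channels of either group.

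Blood and immune cell markers had medians of -0.01, -0.00, -0.03 and 0.04 over 14 genes, some of them near background, and single genes moved both ways. PTPRC had -0.03, -0.12, 0.22 and -0.26, and LCP1 had 1.01, 0.62, -0.90 and 1.04. Cumulus and granulosa markers had medians of 0.05, 0.08, 0.06 and 0.01 over 13, again with wide values both ways. STAR had 0.67, -0.05, 0.33 and -0.23, while in replicate 3 PTX3 had 1.37, INHBA 1.22 and HSD3B1 -1.19, and in replicate 4 PTGS2 had 2.60. The summed signal of the blood list was 2224 to 2821 in glucose pools and 2269 to 2562 in control pools. That of the cumulus list was 9792 to 20121 in glucose pools and 6623 to 17414 in control pools. PTGS2, the brightest cumulus marker in every pool, weighs most in the cumulus sum. The part of any of these cells in the member genes' values was not tested.

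**Figure D4:**
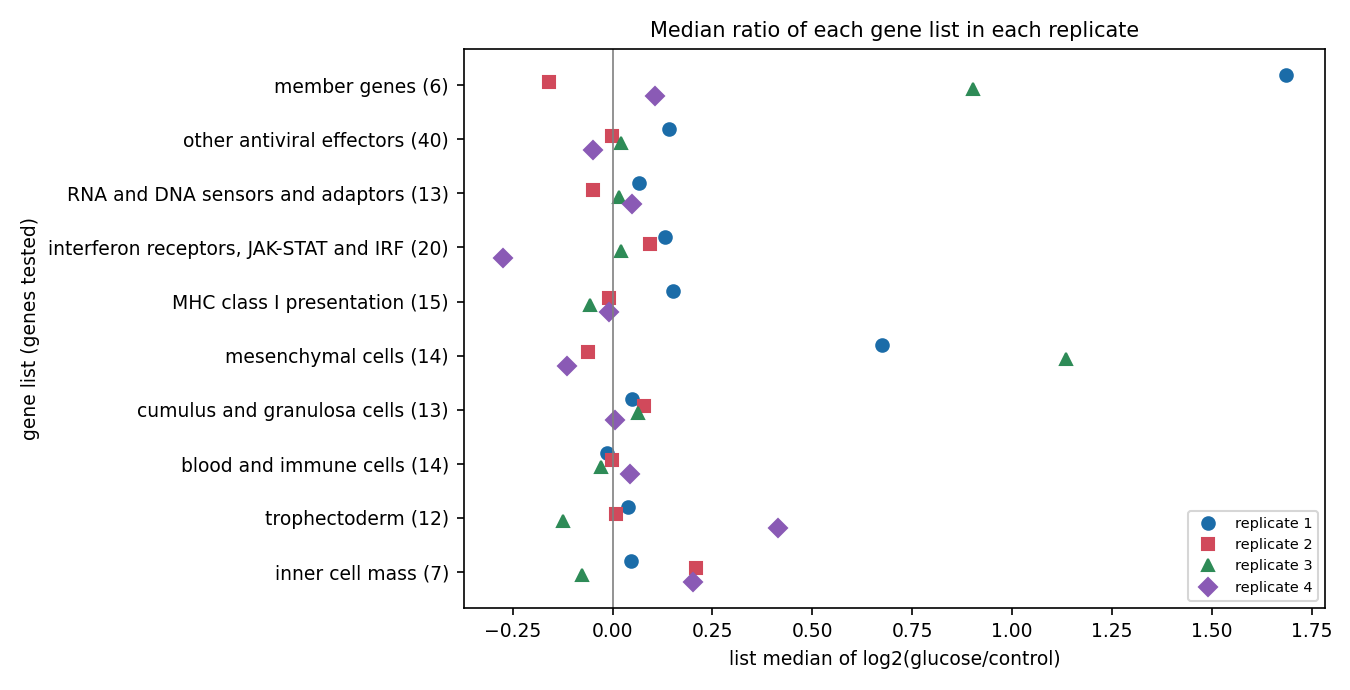
Median log2(glucose/control) (horizontal axis) of each gene list except the interferon ligands, which are not drawn, in each of the 4 replicates. Rows are lists, with the number of genes tested in parentheses. The medians of the member genes and the mesenchymal markers lie to the right in replicates 1 and 3, at 1.69 and 0.90 and at 0.68 and 1.14. The median of the 40 other antiviral effectors stays between -0.05 and 0.14, though single effectors lie outside.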

How the data were processed

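Per the labels' protocols, blastocyst RNA went through 2 rounds of amplification, took up Cy3 or Cy5 by a non-enzymatic reaction and was put on Agilent slides. The deposited scanner tables hold spot and background intensity in both channels, not normalized, per the file headers. The deposited series table holds a score per probe and array, which sets log2 glucose signal over log2 control signal as inferred from the values, is centred near 1 and was normalized in an unknown way. Its column medians were 0.9985, 0.9992, 0.9996, 0.9999, 0.9993, 0.9981, 0.999 and 1. Log2 ratios were recovered from the score with the scanner's control levels and compared on 8613 tested probes of mean log2 signal above 9. On these bright probes they correlated with scanner ratios between 0.982 and 0.997, with glucose over control on every array. The score served as an alternative. The submitters' processing notes name limma. The sources used here do not give the scanner software.

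In R 4.3.3 with limma 3.58.1, mean intensities were corrected by normexp (offset 50, median background) and loess within arrays, with control spots at weight 0. Channel levels used Aquantile between arrays. Arrays of the same number and opposite dye were averaged to 1 replicate. This pairing is inferred from titles: after removal of the dye effect same-numbered arrays correlated at 0.733, 0.773, 0.846 and 0.912 across probes, against at most 0.214 otherwise. Ratios were tested against 0 with lmFit and eBayes, two-sided, with Benjamini-Hochberg adjustment over 32935 probes, and both fits were tested on simulated data. P-values measure only the spread between these pools or arrays.

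The tested probe of highest signal stands for a gene. The text names every member, the 4 genes of lowest p per pathway list, fixed pathway genes such as IFNAR1 and IFNT, and the 3 genes most like each member. Others were named after their values were seen. Members and lists were chosen with earlier results of these data known. Of 43794 probes 21790 have a symbol and 22004 are unnamed here. No build is named for the array, so no coordinates are given, and sequences were not used here.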

Additional observations from a re-analysis of the deposited data

Results flagged for a closer look

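In 5 of 61 groups of 4 values examined, 1 value stood far from the other 3, where chance gives about 1 in 20. The control level of the dimmer ISG12(A) probe was 9.05 in replicate 2, where 1 array had a bright spot in both channels. The control level of IFIH1 was 8.05 in replicate 3, against 7.05 to 7.22 in the other control pools. The ratio of IFNT was -1.74 in replicate 3, that of STAT2 was -1.07 in replicate 4, and that of the class I gene BOLA was 0.026 in replicate 1, against -0.87 to -0.79 in its other replicates.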

How the results depend on the processing

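No probe and no pathway gene passed the adjusted threshold in the ratio test under any of 18 alternatives, with 358 to 2711 probes at an unadjusted p under 0.05. With no replicate block, where the 8 arrays are taken as independent with a dye term, the count was also 0, and the pairing of arrays changed no call. The member means stayed above 0 under every alternative run, except in ISG12(A), IFITM2 and IFIT5 without the pools of replicates 1 and 3, chosen after seeing the data. With 1 replicate left out they ranged from 0.24 to 1.46 for ISG12(A), 0.08 to 1.01 for IFITM2, 0.55 to 1.42 for IFIT5, 0.25 to 0.36 for MX1, 0.47 to 0.89 for IFIH1 and 0.28 to 0.65 for RSAD2. RSAD2 has no value where a probe must pass on each of the 8 arrays. The level test between pool pairs called 12592 probes, 7100 with median spot intensities, 7819 without the array set term and 7745 in the glucose channel alone, and 9624 to 11330 with 1 replicate left out. The causes were not tested. Array weights gave ISG12(A) 1.73 and IFITM2 1.41, and scale normalization gave 1.31 and 1.03, each over 1.5 times the reported mean. The mean of both ISG12(A) probes was 0.40. In 1 Cy3 channel, glucose pool 1 on array set 056, a single bright negative control spot left 11.5% of probes above background, and 78.1% without it, so the members' counts of glucose channels above background are low by at most 1. Those of CDX2, LIN28 and ISG15 went from 4 to 6 without the brightest negative control spot of each channel.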
